A study of Homo sapiens with 12 samples.

Results

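The NF-kB subunit genes and the genes of their feedback inhibitors were followed in U87 cells, a human glioblastoma line also known as U87MG, treated for 72 h with vehicle, compound 1, compound 4 or compound 5, the numbers being those of the labels. The members were the rows of the expression table whose Ensembl identifier maps to NFKB1, NFKB2, RELA, RELB, REL, NFKBIA, NFKBIE, NFKBIZ, TNFAIP3 or BIRC3, a choice by name. All 10 were found among 62757 genes, and all 10 were expressed highly enough to be tested. The feedback inhibitor genes NFKBIZ, NFKBIA and NFKBIE and the survival gene BIRC3 were higher with compound 4 than with vehicle, with NFKBIZ up by 0.50 on the log2 scale. Compound 5 gave lower levels of the subunit genes NFKB1, RELB and REL, by 0.20 to 0.25. NFKBIA rose by 0.12 and BIRC3 by 0.22 with compound 5. The NFKBIE result, and those of NFKBIA and BIRC3 with compound 5, no longer passed the test without some single libraries. With compound 4, 4 of 10 members passed as higher and 1 as lower, against 19.0% and 21.6% of all tested genes. With compound 5, 2 passed as higher and 3 as lower, against 15.9% and 19.2%. TNFAIP3, which encodes the deubiquitinase A20, passed the test in none of the 6 comparisons (limma, Benjamini-Hochberg adjusted p of 0.328 to 0.969; unadjusted p of 0.181 to 0.953).

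The study held 12 libraries of poly(A) RNA, 3 per group. The groups were vehicle and the compounds at unequal doses, 30 µM for compound 1, 10 µM for compound 4 and 5 µM for compound 5. All were U87 cells grown in DMEM with fetal bovine serum and harvested after 72 h, and the labels call the libraries of a group independent biological replicates. The vehicle substance is not named, the series title speaks of taxodione and paclitaxel without saying which number stands for which molecule, and a single cell line was used.

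NF-kB is a family of transcription factors that work as dimers of Rel proteins. RELA, RELB and REL carry activation domains, whereas NFKB1 and NFKB2 encode the precursors p105 and p100, which are processed to p50 and p52. In resting cells the inhibitors of the IκB family hold the dimers in the cytoplasm, and cytokines such as interleukin 1 and tumor necrosis factor lead to IκB degradation through the IκB kinase complex. Many of the genes that the freed dimers switch on encode brakes on the same pathway, and glioblastoma cells are known for high NF-kB activity.

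The promoters of the members that rose together are shown first, beside that of TNFAIP3, which did not pass. Each run is 300 bases of the gene's own strand, from 250 bases before the annotated transcription start to 50 bases after it (RefSeq, GRCh38.p14), and capitals mark a form of the NF-kB binding motif, GGG followed by any 3 bases and TTCC, searched on both strands. On the opposite strand a match reads GGAA, any 3 bases and CCC, and in TNFAIP3 a pair of matches is separated by 2 bases.
NFKBIA, chr14:35404700-35404999, minus strand: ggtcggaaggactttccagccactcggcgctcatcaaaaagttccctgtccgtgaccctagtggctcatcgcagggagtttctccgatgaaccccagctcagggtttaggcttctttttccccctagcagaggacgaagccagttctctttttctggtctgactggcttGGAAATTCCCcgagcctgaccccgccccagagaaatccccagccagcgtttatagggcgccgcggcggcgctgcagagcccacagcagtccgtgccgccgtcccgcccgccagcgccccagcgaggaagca
NFKBIZ, chr3:101827740-101828039, plus strand: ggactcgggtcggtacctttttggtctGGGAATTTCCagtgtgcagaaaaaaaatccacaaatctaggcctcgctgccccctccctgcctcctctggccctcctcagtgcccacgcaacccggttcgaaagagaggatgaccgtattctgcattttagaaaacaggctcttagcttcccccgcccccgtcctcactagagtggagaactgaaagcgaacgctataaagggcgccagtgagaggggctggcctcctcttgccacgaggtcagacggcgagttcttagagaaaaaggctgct
BIRC3, chr11:102317234-102317533, plus strand: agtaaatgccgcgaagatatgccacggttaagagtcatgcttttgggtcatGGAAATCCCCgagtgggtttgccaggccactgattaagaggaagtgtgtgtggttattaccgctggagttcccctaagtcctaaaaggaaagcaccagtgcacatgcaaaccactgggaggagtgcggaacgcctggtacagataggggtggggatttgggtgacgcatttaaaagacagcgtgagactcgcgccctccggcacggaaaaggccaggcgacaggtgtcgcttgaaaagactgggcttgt
TNFAIP3, chr6:137867009-137867308, plus strand: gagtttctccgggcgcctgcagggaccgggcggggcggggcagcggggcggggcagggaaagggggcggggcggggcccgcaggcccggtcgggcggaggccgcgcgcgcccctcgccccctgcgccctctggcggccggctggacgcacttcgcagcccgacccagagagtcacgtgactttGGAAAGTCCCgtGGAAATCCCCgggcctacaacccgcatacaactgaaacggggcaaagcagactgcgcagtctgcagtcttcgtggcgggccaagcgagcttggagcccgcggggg

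For the subunit genes only the stretch around a match is shown, 30 bases each on the plus strand, since these genes did not rise.
NFKB1, chr4:102501300-102501329: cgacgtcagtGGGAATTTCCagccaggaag
NFKB2, chr10:102395674-102395703: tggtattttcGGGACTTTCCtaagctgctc
REL, chr2:60881517-60881546: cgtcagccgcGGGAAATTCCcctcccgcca
These matches begin 49 bases before 1 of the annotated starts of NFKB1 and 21 before 1 of the 3 of NFKB2. The REL match begins 47 bases before its annotated start. In REL the next base is also C, so that the site reads as the motif on both strands and the 2 matches overlap by all but 1 base. Of the members, 8 matched the RefSeq promoter table by symbol, all but RELB and NFKBIE. The motif was present in at least 1 window of 7 of these 8, all but RELA, against 7.84% of 27167 genes in the table and 6.52% of its 34943 windows. A narrower form, GGGA, any 2 bases and TTCC, which is contained in the first, was present in 6 of the 8, lacking in BIRC3 as well, against 1.97% of genes. Both forms of the motif were chosen after matches in the members had been seen, and the members were chosen by name. The shares are therefore a description and no test of enrichment. Genes with several annotated starts had several windows, and in NFKB1 and NFKBIZ the window of the other start held no match. A match describes the letters only. The motif was found in promoters of members that rose (NFKBIA, NFKBIZ, BIRC3), fell (NFKB1, REL) and did not pass (NFKB2, TNFAIP3).

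The table holds DESeq2's regularized logarithm (rlog), a log2-scale value that the authors made from counts and that is shrunk towards each gene's mean, so that differences understate those of the counts, more so for genes with few reads. The depth of the libraries is unknown. The genes tested were the 15524 with a mean of at least 3, and a gene was called when its limma p, adjusted by the Benjamini-Hochberg method over all of them, was under 0.05. Libraries differed from the mean of the other libraries of their group by 0.0509 to 0.0914 (root mean square over genes), and replicate 1 of compound 5 was at the upper end. Members' results that involve compound 5 are therefore also given without it where the call changed. Against vehicle, NFKB2, NFKBIZ, NFKBIA and BIRC3 are given without it as well. VIM (15.98), CD44 (15.20) and NES (10.55), markers of glioma cells, had high mean rlog values. GFAP and OLIG2 stood at 5.71 and 6.50, and the glial genes SOX2, S100B and AQP4 at 0.092, 0.77 and -2.21. Of 16 leukocyte markers, 3 reached a mean of 3, and CD3D, C1QA and FCGR3A were listed at 0 in every library. CSF1R was the most abundant, at 7.88. The markers' sum on the linear scale was 244 to 252 with vehicle, 236 to 272 with compound 1, 281 to 304 with compound 4 and 281 to 291 with compound 5. CSF1R was 0.29 above vehicle with compound 4 and 0.24 with compound 5, and whether this has a part in the results below was not tested.

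Levels of different genes were compared after subtracting the log2 of the exon length in kb (GENCODE 29). With vehicle, NFKBIA had the highest level per kb, 10.19 ± 0.016 (SD, n = 3), followed by NFKB2 at 10.07 ± 0.024. NFKBIA encodes IκBα, an inhibitor that is quickly made anew after activation. RELB (9.13 ± 0.059), RELA (9.03 ± 0.019) and NFKBIZ (8.99 ± 0.057) formed the next step, and the libraries of RELA and NFKBIZ overlapped on this scale. NFKB1 (8.27 ± 0.015) and TNFAIP3 (8.11 ± 0.043) came next, then NFKBIE (7.33 ± 0.045) and BIRC3 (6.61 ± 0.096). REL, the gene of c-Rel, was lowest at 3.23 ± 0.060, about 5.8 below RELA. With compound 4 NFKBIZ stood above RELB and below NFKB2, at 9.49 ± 0.048 against 9.09 ± 0.037 per kb. These levels depend on the annotated length. A noncoding RNA annotated on the same strand shares 43.3% of the exon bases of REL and was listed at 0, and an antisense RNA shares 1.88% of those of TNFAIP3; the sources used here do not say whether counting used strand.

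**Figure D1:**
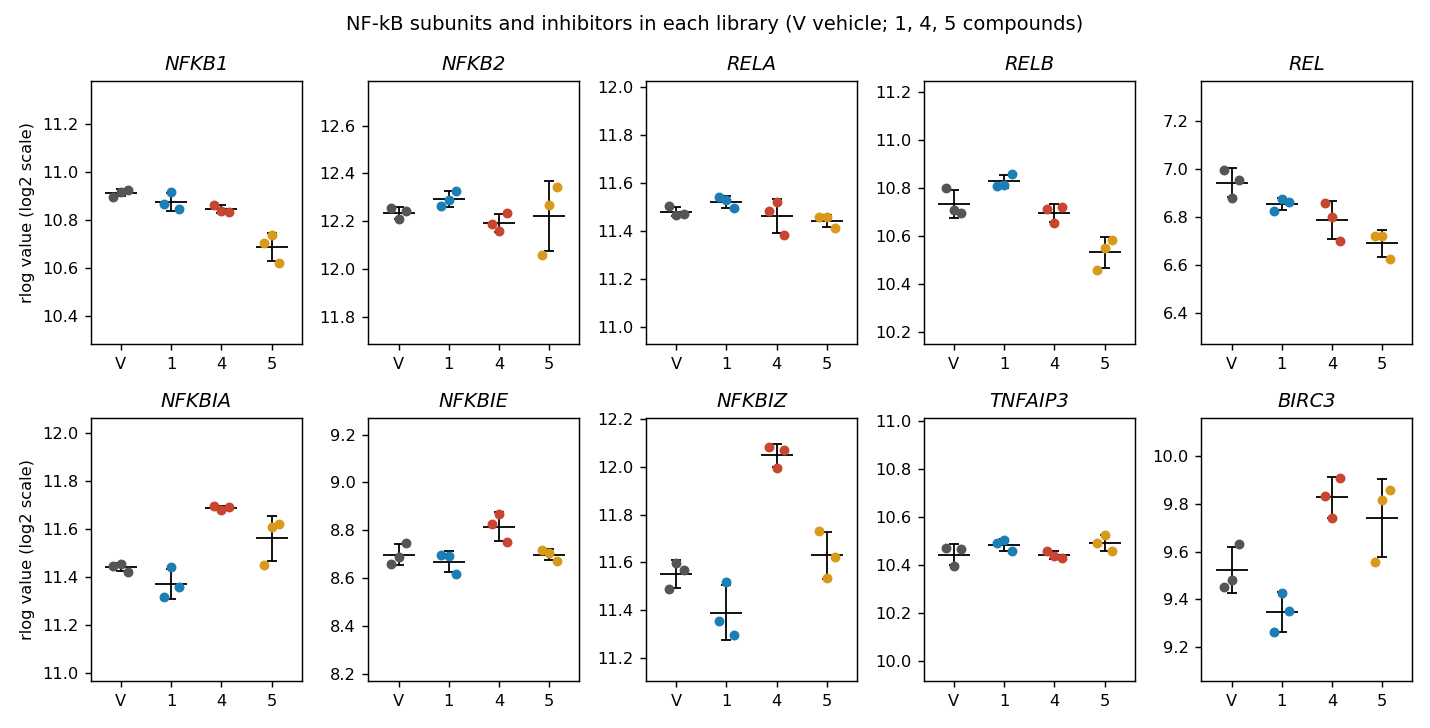
rlog values (log2 scale, vertical axes; each panel spans the same range around its gene's mean) of the 10 genes in each library of vehicle (V) and of compounds 1, 4 and 5, with the group mean and SD (n = 3) in black. NFKBIZ lies between 11.99 and 12.08 with compound 4, above all other libraries, and the lowest NFKB1 values are those of compound 5.

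Among the subunits, RELA passed the test against vehicle with no compound. RELA, the main activating subunit of the canonical dimer (ENSG00000173039.20, GRCh38 chromosome 11, 65653596 to 65663094), had rlog values of 11.50, 11.47 and 11.47 with vehicle. It stood at 11.54, 11.53 and 11.50 with compound 1, at 11.49, 11.52 and 11.38 with compound 4 and at 11.46, 11.46 and 11.41 with compound 5. The vehicle libraries overlapped those of compounds 1 and 4 and lay just above those of compound 5. The differences from vehicle were 0.041 (95% interval -0.036 to 0.12), -0.018 (-0.096 to 0.059) and -0.038 (-0.12 to 0.040) in the order of the compounds, and none passed (limma, Benjamini-Hochberg adjusted p = 0.545, 0.738 and 0.474). The sign with compound 4 or 5 turned when libraries were quantile-normalized, so no direction can be given for RELA.

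NFKB1 fell with compound 5. The gene (ENSG00000109320.14, chromosome 4, 102501329 to 102617302) had rlog values of 10.90, 10.92 and 10.93 with vehicle and 10.71, 10.74 and 10.62 with compound 5. Every compound 5 library was below every library of the other groups, since compound 1 gave 10.87, 10.92 and 10.84 and compound 4 gave 10.86, 10.84 and 10.83. The difference from vehicle was -0.23 (SE 0.037, 1.17-fold lower on the rlog scale, limma, Benjamini-Hochberg adjusted p = 2.87e-05). With compound 4 it was -0.069 (95% interval -0.15 to 0.0080), which did not pass (adjusted p = 0.147), although the libraries did not overlap.

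RELB, the subunit of the noncanonical dimer with p52, also fell with compound 5. RELB (ENSG00000104856.15, chromosome 19, 45001430 to 45038198) had rlog values of 10.80, 10.71 and 10.69 with vehicle, 10.81, 10.81 and 10.86 with compound 1, 10.71, 10.65 and 10.72 with compound 4 and 10.46, 10.55 and 10.58 with compound 5. The compound 5 libraries lay below all others and those of compound 1 above all others. The difference from vehicle was -0.20 with compound 5 (SE 0.040, adjusted p = 2.53e-04), and 0.093 with compound 1 (95% interval 0.0099 to 0.18), which did not pass after adjustment (adjusted p = 0.146). With compound 4 it was -0.039 (adjusted p = 0.470).

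REL fell with compounds 4 and 5. REL (ENSG00000162924.16, chromosome 2, 60881521 to 60931610) is the most weakly expressed member, with rlog values of 6.998, 6.88 and 6.95 with vehicle. The values were 6.83, 6.88 and 6.86 with compound 1, 6.86, 6.80 and 6.70 with compound 4 and 6.72, 6.72 and 6.63 with compound 5. All libraries treated with a compound lay below the vehicle libraries, with compound 1 closest to them. The differences were -0.089 with compound 1 (adjusted p = 0.243), -0.16 with compound 4 (SE 0.047, adjusted p = 0.00870) and -0.25 with compound 5 (SE 0.047, adjusted p = 1.15e-04). The call with compound 4 was lost without replicate 1 of vehicle (-0.13, adjusted p = 0.0580) or without replicate 3 of compound 4 (-0.11, adjusted p = 0.0781).

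NFKB2, whose product p100 is both a precursor and an inhibitor, passed in none of the 6 comparisons (limma, adjusted p of 0.0965 to 0.871; unadjusted p of 0.0474 to 0.804). NFKB2 (ENSG00000077150.21, chromosome 10, 102394110 to 102402529) had rlog values of 12.25, 12.21 and 12.24 with vehicle, 12.26, 12.29 and 12.33 with compound 1, 12.19, 12.16 and 12.23 with compound 4 and 12.06, 12.27 and 12.34 with compound 5. The spread within compound 5 came from replicate 1, which was the lowest of the 12 libraries while the other 2 lay above all vehicle libraries. Its difference from vehicle with compound 5 was -0.012 (95% interval -0.11 to 0.086), and 0.070 without that replicate (adjusted p = 0.138). NFKB2 was called lower with compound 4 than with compound 1 without replicate 1 of compound 5 (-0.099, adjusted p = 0.0130), when only those groups were fitted (adjusted p = 0.0181) and with library weights (-0.089, adjusted p = 0.0338), and lower with compound 5 than with compound 1 without its replicate 3 (-0.13, adjusted p = 0.0436).

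Of the inhibitors, NFKBIZ changed most with compound 4. It encodes IκBζ, a nuclear member of the IκB family that binds p50 and is known both to restrain NF-kB and to help switch on secondary targets such as IL6. NFKBIZ (ENSG00000144802.11, chromosome 3, 101827991 to 101861022) had rlog values of 11.49, 11.60 and 11.57 with vehicle, 11.35, 11.52 and 11.30 with compound 1, 12.08, 11.99 and 12.07 with compound 4 and 11.73, 11.53 and 11.62 with compound 5. The compound 4 libraries stood clear of all others, while those of compounds 1 and 5 overlapped vehicle. The rise with compound 4 was 0.50 (SE 0.050, 1.41-fold on the rlog scale, limma, Benjamini-Hochberg adjusted p = 6.89e-09). With compound 1 NFKBIZ fell by 0.16 (SE 0.050, adjusted p = 0.0356), a call that was lost without replicate 2 or 3 of vehicle (-0.14 and -0.15, adjusted p = 0.157 and 0.105) or without replicate 1 or 3 of compound 1 (-0.14 and -0.12, adjusted p = 0.141 and 0.211). With compound 5 NFKBIZ stood 0.078 above vehicle (95% interval -0.025 to 0.18, adjusted p = 0.239). That value was 0.026 without replicate 1 of compound 5 (adjusted p = 0.712) and 0.12 with quantile-normalized libraries, where it was called (adjusted p = 0.0464).

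NFKBIA rose with compounds 4 and 5. NFKBIA (ENSG00000100906.12, chromosome 14, 35401511 to 35404749) had rlog values of 11.44, 11.45 and 11.42 with vehicle, 11.32, 11.44 and 11.36 with compound 1, 11.70, 11.68 and 11.69 with compound 4 and 11.45, 11.61 and 11.62 with compound 5. The compound 4 libraries were the 3 highest, and replicate 1 of compound 5 lay at the vehicle level. The difference from vehicle was 0.25 with compound 4 (SE 0.042, 1.19-fold, adjusted p = 2.45e-05) and 0.12 with compound 5 (SE 0.042, adjusted p = 0.0263). The compound 5 call was lost without replicate 1 of vehicle (0.12, adjusted p = 0.0596), replicate 3 of vehicle (0.11, 0.0827), replicate 2 of compound 5 (0.096, 0.125) or replicate 3 of compound 5 (0.090, 0.140), and was 0.18 without replicate 1 of compound 5 (adjusted p = 3.80e-04). With compound 1 NFKBIA stood at -0.069 (adjusted p = 0.327).

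NFKBIE, which encodes IκBε, a slower inhibitor of RELA and c-Rel dimers, rose slightly with compound 4. NFKBIE (ENSG00000146232.17, chromosome 6, 44258166 to 44265788) had rlog values of 8.66, 8.69 and 8.75 with vehicle and 8.83, 8.87 and 8.75 with compound 4. The lowest compound 4 library lay just above the highest vehicle library. The difference was 0.12 (SE 0.044, adjusted p = 0.0331), and it was no longer called without replicate 1 or 2 of vehicle (0.097 and 0.11, adjusted p = 0.134 and 0.0819) or of compound 4 (0.11 and 0.090, adjusted p = 0.0888 and 0.161). With compound 1 NFKBIE stood at -0.030 and with compound 5 at -0.00013, neither called (adjusted p = 0.733 and 0.999).

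TNFAIP3 is the gene of A20, which removes ubiquitin chains from signalling proteins upstream of the IκB kinases. TNFAIP3 (ENSG00000118503.17, chromosome 6, 137867188 to 137883312) had rlog values of 10.47, 10.39 and 10.47 with vehicle, 10.49, 10.50 and 10.46 with compound 1, 10.46, 10.44 and 10.43 with compound 4 and 10.49, 10.53 and 10.46 with compound 5. The libraries of each compound overlapped those of vehicle. The difference with compound 4 was -0.0022, with a 95% interval of -0.078 to 0.074, so that a rise of the size of that of NFKBIA lay outside it. The intervals were -0.035 to 0.12 with compound 1 and -0.027 to 0.12 with compound 5.

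BIRC3, whose product cIAP2 is a ubiquitin ligase that protects from cell death and keeps the kinase NIK low, rose with compounds 4 and 5. BIRC3 (ENSG00000023445.16, chromosome 11, 102317450 to 102339403) had rlog values of 9.45, 9.48 and 9.63 with vehicle, 9.26, 9.43 and 9.35 with compound 1, 9.83, 9.74 and 9.91 with compound 4 and 9.56, 9.82 and 9.86 with compound 5. Compound 1 lay below vehicle and compound 4 above it without overlap, while replicate 1 of compound 5 fell within the vehicle range. The differences were 0.31 with compound 4 (SE 0.061, 1.24-fold, adjusted p = 2.24e-04) and 0.22 with compound 5 (SE 0.061, adjusted p = 0.00605). The latter was 0.31 without replicate 1 of compound 5 (adjusted p = 2.33e-05) and was lost without its replicate 3 (0.16, adjusted p = 0.0552). With compound 1 the difference was -0.17 (95% interval -0.30 to -0.048), which did not pass (adjusted p = 0.0679); it was called without replicate 2 of compound 1 (-0.21, adjusted p = 0.0419), and also when replicate 1 or 3 of compound 5 was left out of the shared variance estimate (-0.17, adjusted p = 0.0119 and 0.0495). BIRC2, the paralog next to it, rose by 0.16 with compound 4 and by 0.18 with compound 5.

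**Figure D2:**
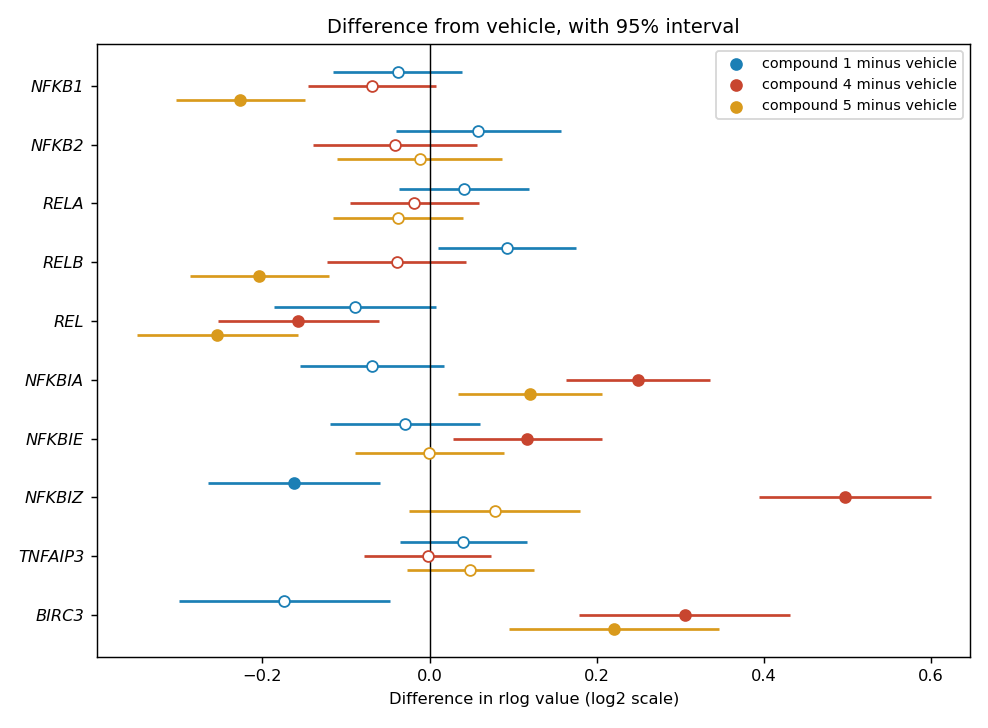
Differences from vehicle in rlog value (log2 scale, horizontal axis) of the 10 genes for compounds 1, 4 and 5, with 95% intervals; filled points were called (limma, Benjamini-Hochberg adjusted p under 0.05, n = 3 per group). NFKBIZ with compound 4 lies farthest to the right at 0.50, and REL with compound 5 farthest to the left at -0.25.

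The comparisons with vehicle share the 3 vehicle libraries and are given side by side. Counted together, 4 of 10 members were higher and 1 lower with compound 4, against 19.0% of all tested genes called higher, 21.6% called lower and 40.6% called in either direction. The 5 members called are thus close to the share of all genes, and the members' median difference was -0.010, against -0.0013 over all genes. With compound 5, 2 of 10 were higher and 3 lower, against 15.9%, 19.2% and 35.1% of all genes; without replicate 1 of compound 5, 5 were called as well. With each library left out in turn, NFKB1 ranged from -0.25 to -0.19, RELB from -0.23 to -0.17 and REL from -0.29 to -0.22, all called. With compound 1, 0 were higher and 1 was lower, against 5.24%, 5.63% and 10.9%; at an unadjusted p under 0.05 RELB was higher and NFKBIZ and BIRC3 lower. Nuclear noncoding and mitochondrial transcripts, which can vary with RNA quality, moved with the compounds too. Of 5 nuclear noncoding transcripts, 2, 1 and 3 were called higher with compounds 1, 4 and 5, and 0, 1 and 0 lower. NEAT1, a nuclear-retained transcript, rose by 0.54, 0.84 and 0.72, whereas KCNQ1OT1 stood at 6.86 with compound 4 against 7.11 with vehicle. Of 13 mitochondrial mRNAs, 3, 13 and 13 rose. Whether RNA quality differed, and its part in the members' changes, was not tested. In RNA of whole cultures, fewer expressing cells and less RNA per cell cannot be told apart.

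The compounds were also set against each other, at the unequal doses given. Compound 4 stood above compound 1 in 4 of 10 members and below it in 1, against 20.9% and 21.8% of all genes (42.7% in either direction). NFKBIZ was 0.66 higher (SE 0.050, 1.58-fold, limma, Benjamini-Hochberg adjusted p = 2.59e-11), BIRC3 0.48, NFKBIA 0.32 and NFKBIE 0.15 higher, and RELB differed by -0.13. The RELB and NFKBIE calls were lost without replicate 2 of compound 4 (-0.11 and 0.12, adjusted p = 0.0591 and 0.0557). Compound 5 stood above compound 1 in 3 members and below it in 3, against 13.9% and 16.2% (30.1% in either direction). BIRC3 (0.39), NFKBIZ (0.24) and NFKBIA (0.19) were higher and RELB (-0.30), NFKB1 (-0.19) and REL (-0.16) lower. With each library left out in turn, BIRC3 ran from 0.34 to 0.49, NFKBIZ from 0.19 to 0.30 and NFKBIA from 0.16 to 0.24, all called. REL was no longer called without replicate 3 of compound 5 (-0.13, adjusted p = 0.0609).

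Between compounds 5 and 4, 0 members were higher with compound 5 (limma; 0 also at an unadjusted p under 0.05) and 4 were lower, against 10.7% and 11.4% of all genes (22.0% in either direction). NFKBIZ differed by -0.42 (SE 0.050, adjusted p = 4.19e-07), RELB by -0.16, NFKB1 by -0.16 and NFKBIA by -0.13. The NFKBIA call was lost without any 1 of the 3 compound 4 libraries, at a similar difference (-0.12 to -0.13, limma adjusted p = 0.0623 to 0.0854). Without replicate 1 of compound 5 it was lost as well, and the difference was smaller (-0.074, adjusted p = 0.149). BIRC3 did not separate these compounds (-0.085, 95% interval -0.21 to 0.041, adjusted p = 0.357), and its difference ran from -0.14 to 0.0086 without single libraries. NFKBIE, at -0.12, narrowly missed (adjusted p = 0.0540), and REL did not pass (-0.097, 95% interval -0.19 to -0.00040, adjusted p = 0.147). Without replicate 1 of compound 5, NFKB2 was called higher with compound 5 (0.11, adjusted p = 0.0232) and NFKBIE lower (-0.13, adjusted p = 0.0468). NFKBIE was also called without replicate 3 of compound 1 (-0.12, adjusted p = 0.0490) or of compound 4 (-0.15, adjusted p = 0.0305).

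**Figure D3:**
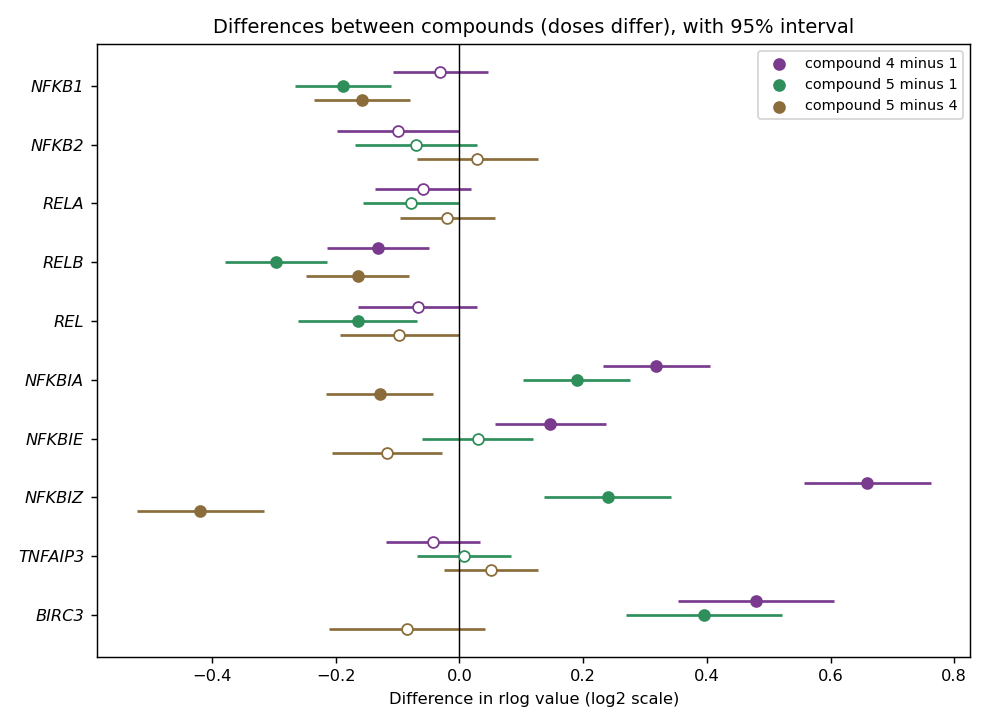
Differences in rlog value (log2 scale, horizontal axis) of the 10 genes between pairs of compounds, given at 30 µM (compound 1), 10 µM (compound 4) and 5 µM (compound 5), with 95% intervals; filled points were called (limma, Benjamini-Hochberg adjusted p under 0.05, n = 3 per group). NFKBIZ shows the largest gap in this set, 0.66 between compounds 4 and 1 and -0.42 between compounds 5 and 4.

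The other genes of the pathway were followed in 4 lists. Among 12 receptor genes, 3 rose and 2 fell with compound 4, 1 rose and 1 fell with compound 5, and 1 fell with compound 1; medians were 0.012, 0.031 and -0.015. Over all tested genes 40.6%, 35.1% and 10.9% were called with compounds 4, 5 and 1, so the receptors' counts were close to or below those shares. The receptors of tumor necrosis factor went opposite ways with compound 4: TNFRSF1B, the inducible receptor, rose by 0.50, from 10.97 ± 0.015 to 11.47 ± 0.036 (SD, n = 3), while TNFRSF1A, the broadly expressed receptor, fell by 0.43, from 11.92 ± 0.057 to 11.49 ± 0.025. TNFRSF1A also fell by 0.24 with compound 5 and by 0.13 with compound 1. TNFRSF12A, the receptor of TWEAK, rose by 0.50 with compound 4 and 0.37 with compound 5, and TLR3, a sensor of double-stranded RNA, fell by 0.17 with compound 4. The TNFRSF1A call with compound 1 was lost without replicate 1 of vehicle (-0.094, adjusted p = 0.165) or replicate 1 or 3 of compound 1 (-0.13 and -0.11, adjusted p = 0.0770 and 0.122). That call was also lost without a filter on low values (limma adjusted p = 0.0984) and with quantile normalization (0.132).

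Of 23 adaptor and kinase genes tested, 6 rose and 4 fell with compound 4, 3 rose and 5 fell with compound 5, and none was called with compound 1 (limma; 4 at an unadjusted p under 0.05). The medians were 0.0159, -0.0445 and -0.0205, and the counts with compounds 4 and 5 were close to the shares of all genes called, 40.6% and 35.1%. IRAK1, a kinase of interleukin 1 and Toll-like receptors, rose by 0.28 with compound 4, and MAP3K14, the gene of NIK, by 0.24. IKBKE rose by 0.24 and 0.19 and TRAF5, an adaptor of tumor necrosis factor receptors, by 0.20 and 0.24 with compounds 4 and 5; the IKBKE call with compound 5 was lost without a filter on low values (adjusted p = 0.0546). With compound 5, TAB3, a partner of the kinase TAK1, fell by 0.22 and XIAP, an inhibitor of caspases, by 0.20. TAB3 was also called lower with compound 4 (-0.14).

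Of 17 other inhibitor genes, 6 rose and 3 fell with compound 4, 4 rose and 3 fell with compound 5, and 2 fell with compound 1, with medians of 0.0335, -0.0424 and -0.0289, against 40.6%, 35.1% and 10.9% of all genes called. The compound 5 count of 7 was 2 without a filter on low values and 3 to 7 without single libraries. NFKBIB, the gene of IκBβ, rose by 0.40 with compound 4 (SE 0.045, adjusted p = 5.81e-08) and by 0.13 with compound 5. ZC3H12A encodes Regnase-1, an RNase that degrades inflammatory mRNAs; it rose by 0.28 with compound 4, fell by 0.31 with compound 1 (SE 0.044, adjusted p = 3.13e-05) and stood at -0.0038 with compound 5. NFKBID, a nuclear IκB gene, rose by 0.26 and 0.14 with compounds 4 and 5 and fell by 0.16 with compound 1, and PDLIM2, a ligase that acts on nuclear RELA, fell by 0.18 with compound 4. TNIP1, an A20 partner, rose by 0.17 and N4BP1 fell by 0.13 with compound 5. TNIP1 was also called higher with compound 4 (0.14). The NFKBID call with compound 1 and the NFKBID, NFKBIB and N4BP1 calls with compound 5 were each lost without some single libraries (adjusted p of up to 0.0969, 0.0955, 0.156 and 0.122). Without a filter on low values, NFKBID with compound 1 and NFKBIB and N4BP1 with compound 5 were lost too (limma adjusted p = 0.0705, 0.0694 and 0.0543). N4BP1 was also lost with quantile normalization (0.0669).

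Of 31 target genes tested, 20 rose and 5 fell with compound 4, 22 rose and 3 fell with compound 5, and 2 rose and 3 fell with compound 1, with medians of 0.44, 0.28 and -0.0027, against 40.6%, 35.1% and 10.9% of all genes called. The compound 1 count of 5 ran from 2 to 11 under other settings and from 2 to 9 without single libraries. This list of known inflammatory outputs was drawn up with earlier results of these samples known and is not independent evidence of a direction. IL1B, the gene of interleukin 1 beta, rose by 2.53 with compound 4 and 1.21 with compound 5, and CXCL8 by 1.70 and 1.11. LIF rose by 1.61 and 0.78, CSF2 by 1.42 and 1.11 and IL6 by 1.33 and 0.79 with compounds 4 and 5, and IL6 fell by 0.20 with compound 1 (adjusted p = 0.0212). With compound 1, ICAM1 and SAT1 rose by 0.26 and 0.22, while CXCL1 and CXCL3, close paralogs whose reads may not be separable, fell by 0.26 and 0.21. The SAT1 and CXCL3 calls were lost without some single libraries (limma adjusted p of up to 0.0911 and 0.177) and without a filter on low values (0.153 and 0.241). Both were also lost without a trend (0.0592 and 0.105) and with robust variance (0.102 and 0.190), and CXCL3 with quantile normalization (0.0780). The targets named for compound 4 were those with the largest differences, and NFKBIA at 0.25 and NFKBIZ at 0.50 lay below them. Against the target median of 0.44 with compound 4, NFKBIZ lay above and NFKBIA below. By absolute difference NFKBIZ ranked 297 among the 15524 tested genes with compound 4, and TNFAIP3, at -0.0022, was near 0.

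**Figure D4:**
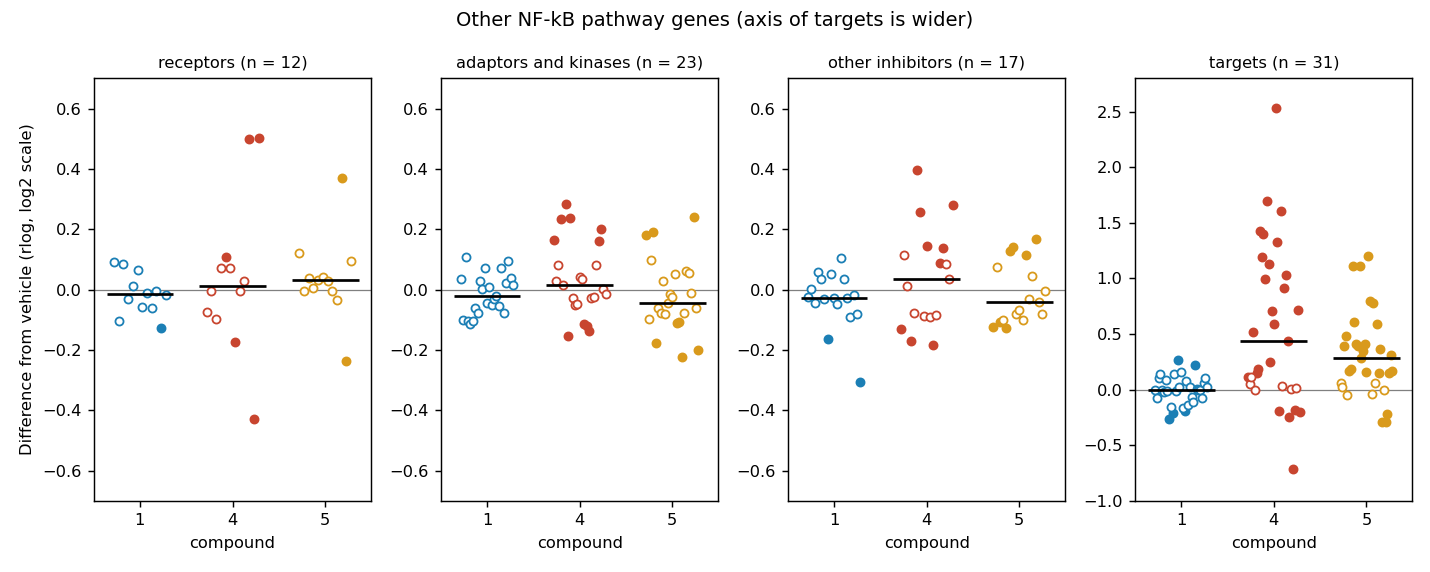
Differences from vehicle in rlog value (log2 scale, vertical axis) of the other NF-kB pathway genes for compounds 1, 4 and 5, in 4 lists; filled points were called, black bars are medians, and the axis of the target panel is wider. The target medians were 0.44 with compound 4 and 0.28 with compound 5, while those of the other lists lay between -0.0445 and 0.0335.

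The members followed several patterns across the 12 libraries, which genes outside the set shared. For each member, the genes of highest r lay outside the set. The patterns are described by Pearson's r with no test, since libraries of a group share their treatment and the values share their scaling. NFKBIA went with BIRC3 (r = 0.932) and NFKBIZ (0.852), and NFKBIZ with NFKBIE (0.829). NFKB1 went with REL (0.862) and RELB (0.729), whereas RELA ran against BIRC3 (-0.708). Over all tested genes with a symbol, those most like NFKBIZ were SH2B3 (r = 0.985), NRG1 (0.984) and PREX1 (0.979), which differed from vehicle by 0.76, 0.69 and 0.46 with compound 4 and by -0.22, -0.23 and -0.27 with compound 1. Most like NFKBIA were HAS1 (0.970), a hyaluronan synthase gene, CYP26B1 (0.969) and the chemokine gene CXCL3 (0.964), which stood 1.05, 0.51 and 0.99 above vehicle with compound 4. BIRC3 was closest to PRKAR1B (0.970), RPS26 (0.966) and RASD1 (0.966). Among the genes most like RELB were HERPUD1 (0.960) and YARS1 (0.957), which stood at -0.28 and -0.23 with compound 5. NFKB1 was closest to BAG6 (0.967) and REL to KANSL3 (0.951). For RELA, NFKB2 and TNFAIP3 the highest values were lower, 0.924 (EEPD1), 0.880 (TRAM2-AS1) and 0.917 (DNAAF10), and for NFKBIE 0.948 (ENTPD7).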

How the data were processed

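Gene expression of 12 U87 libraries was read from the deposited table. Its rlog values are on the log2 scale and were made by the authors with DESeq2 1.30.1 after alignment to GRCh38 with STAR 2.7.10a, per the submitters' processing notes; the counting tool, annotation release and strand setting are not stated in these sources. The shrinkage of rlog values also narrows the spread between libraries, and no depth or counting interval can be given. Columns were matched to samples by library name, and identifiers to symbols without their version (15517 of 15524 tested genes had a symbol).

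Limma 3.58.1 (R 4.3.3) estimated group means from the 12 libraries jointly, with a mean-variance trend (8 residual degrees of freedom), for genes with a mean of at least 3. P-values were adjusted by Benjamini-Hochberg over the 15524 genes of each comparison, and the test was checked on simulated data. All p-values come from this test, intervals are 95%, and SEs are moderated. The members and lists were chosen with earlier results of these data known, and the motifs after matches in the members had been seen. All members are named; each list names up to 4 called genes with the largest difference per compound, and each member up to 3 genes of highest r, of which 1 is not reported here. BIRC2 was chosen after its values were seen, and a gene named for 1 compound may be given for the others. Other settings were a filter at none or 5, median centring, quantile normalization, only the 2 groups compared, no trend, robust variance, library weights, a replicate block and leaving out each library. Figures were drawn with Python 3.11.15 and matplotlib 3.10.9.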

Additional observations from a re-analysis of the deposited data

How the results depend on the processing

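Of the members' calls, those of NFKBIZ, NFKBIA and BIRC3 with compound 4 and of NFKB1, RELB and REL with compound 5 against vehicle kept direction and call under all 9 other settings and without each of the 12 libraries. With compound 1, the 1 member called became 0 without a filter, with quantile normalization or without a trend, and 2 with only the 2 groups compared, library weights or the replicate block; leaving out single libraries gave 0 to 2. With compound 5 against vehicle, 5 became 3 without a filter (NFKBIA adjusted p = 0.111, BIRC3 0.0702), 6 with quantile normalization (NFKBIZ gained, 0.12, adjusted p = 0.0464) and 3 to 5 without single libraries; with compound 4 against vehicle, 4 without a filter (NFKBIE adjusted p = 0.0529) and 3 to 5 without single libraries, and for compound 4 against 1, 3 to 6 without single libraries. All genes called with compound 1 numbered 1688, against 800 without a filter and 2734 with library weights, and 849 to 2363 without single libraries. Values that changed sign belonged to members not called in the main setting. With quantile normalization these were NFKB2 (0.020), RELA (0.035) and TNFAIP3 (0.023) with compound 4 and NFKB2 (0.047), RELA (0.0070) and NFKBIE (0.0014) with compound 5; with library weights, TNFAIP3 with compound 4 (0.0075) and NFKB2 with compound 5 (0.034); with median centring, TNFAIP3 between compounds 5 and 1 (-0.0016). Where leaving out a single library changed a sign, the values ran from -0.027 to 0.010 (TNFAIP3) and -0.047 to 0.022 (RELA) for compound 4 against vehicle, -0.020 to 0.024 (NFKBIE) and -0.072 to 0.070 (NFKB2) for compound 5 against vehicle, -0.0093 to 0.026 (TNFAIP3) and -0.13 to 0.011 (NFKB2) for compound 5 against 1, and -0.060 to 0.0096 (RELA), -0.14 to 0.0086 (BIRC3) and -0.031 to 0.11 (NFKB2) for compound 5 against 4. The main test did not pair same-numbered libraries, and the correlations cannot tell whether these were handled together. Correlations of their deviations ran from -0.215 to 0.249, against -0.265 to 0.255 for other numbers, and 6 of 12 libraries correlated best with their own number. The replicate block moved the members called with compound 1 from 1 to 2 (BIRC3, limma adjusted p = 0.0292) and no other member count by over 1.5 times. Depth is unknown, so what it limits cannot be stated. The cause of these changes was not tested.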
